A study of Arabidopsis thaliana with 6 samples.

Results

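The response of each gene to added copper was compared between the spl7 mutant and wild type of Arabidopsis thaliana, as 1 difference per gene between the log2 copper ratios of the genotypes. RNA-seq libraries came from whole seedlings aged 7 days, raised in continuous white light on MS, the Murashige and Skoog salt medium, either plain or with CuSO4 added to 5 µM. The 4 groups were spl7 with copper, spl7 on MS, wild type (Col-0) with copper and wild type on MS, with 1 library each; the labels give no allele for spl7 and do not say how many seedlings were pooled. A list of SPL7 ChIP-seq peaks from seedlings on MS that carry a 35S:FLAG-SPL7 transgene, which drives the tagged protein from a strong viral promoter, was set beside the differences.

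The difference was log2((wild type with copper + 1)/(wild type on MS + 1)) minus the same ratio in spl7, in FPKM (fragments per kilobase of transcript, normalised for sequencing depth, the deposited unit). It runs wild type minus spl7, so a positive value means a copper ratio that was higher in wild type and a negative value one that was higher in spl7. Of 27052 gene entries, 18989 reached 5 FPKM in any library; 287 of these were at 0 in a library and 2849 shared their locus with another entry, and both sets were put aside, which left 15853. A gene was counted where the difference was at least 1 or at most -1, a 2-fold difference between the copper ratios. With 1 library per group the difference has no replicate check, no p-value is given, and a value that is off in any of the 4 libraries enters it in full. Read depth is unknown.

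SPL7 belongs to the SBP-domain transcription factors of plants and is the counterpart of the copper regulator CRR1 of the alga Chlamydomonas. When copper is short it is known to switch on copper uptake genes, the iron superoxide dismutase FSD1 and microRNAs that remove transcripts of dispensable copper proteins, among them the copper/zinc superoxide dismutases and laccases. Plain MS medium holds little copper for Arabidopsis seedlings, and added copper is known to switch these responses off. The comparison asks which genes respond to copper in one way with SPL7 intact and in another without it.

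Of the 15853 genes, 56 (0.353%) were counted as positive and 146 (0.921%) as negative, 202 (1.27%) in all. The middle of the distribution lay near 0: the median difference was 0.02, the quartiles were -0.11 and 0.16, and the 1st and 99th percentiles were -0.97 and 0.75. Differences of size 2 or more were held by 2 positive genes, CSD2 and CCS, and by 21 negative genes. Across genes, the copper ratios of spl7 and wild type had a Pearson correlation of 0.42 and a Spearman correlation of 0.33, which describes these 4 libraries only. The interquartile range of the copper ratio was 0.25 in spl7 and 0.19 in wild type (log2).

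**Figure D1:**
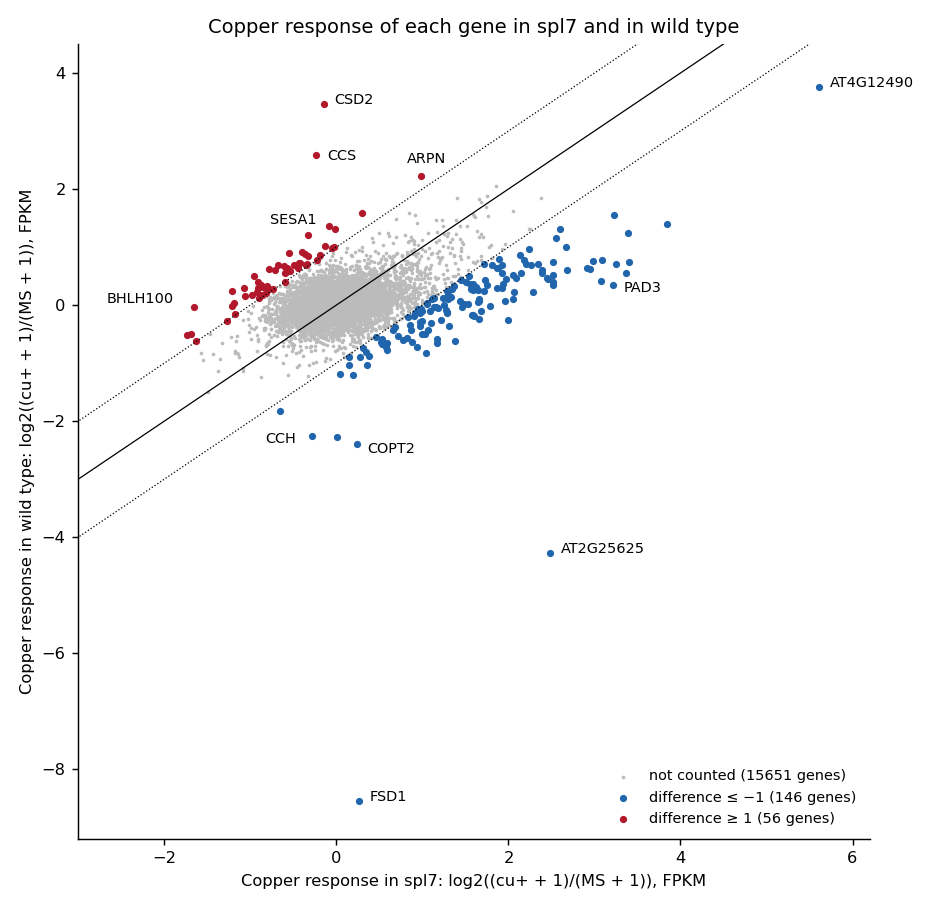
Copper response (log2 ratio of FPKM + 1, copper over MS) of each of 15853 genes in spl7 on the horizontal axis and in wild type on the vertical axis; the solid line marks equal responses and the dotted lines a difference of 1 either way. The 146 negative genes mostly extend to the right of the line, toward higher levels with copper in spl7, while FSD1 and AT2G25625 lie far below it and CSD2 and CCS far above it.

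The labels could be checked on the mutated gene. SPL7 (locus AT5G18830, on chromosome 5 of TAIR10 from 6275990 to 6280681) had 20.7 FPKM in spl7 with copper and 20.2 FPKM in spl7 on MS, against 105 FPKM in wild type with copper and 107 FPKM in wild type on MS. Both spl7 libraries lay below both wild-type libraries, and the medium made little difference to either genotype. Its difference in copper response was -0.07, and the gene was not counted.

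The gene lists here and below were chosen with earlier results of these data known. Their counts stand beside 0.353% positive and 0.921% negative over all genes. In all 7 counted genes of the copper lists the library that stood apart was wild type on MS. FSD1 (AT4G25100; chromosome 4, 12884300 to 12887011), the iron superoxide dismutase of the chloroplast, stood at 9.38 FPKM in spl7 with copper and 7.64 FPKM in spl7 on MS, against 14.0 FPKM in wild type with copper and 5647 FPKM in wild type on MS. The first 3 levels were close to one another and the last was far above them. This gave a difference of -8.82, the lowest of the 15853.

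The copper/zinc superoxide dismutase of the chloroplast, CSD2 (AT2G28190; chromosome 2, 12014498 to 12016569), had the highest difference, 3.62. Its levels were 4444 FPKM in spl7 with copper and 4929 FPKM in spl7 on MS, against 5164 FPKM in wild type with copper and 466 FPKM in wild type on MS. Again wild type on MS was the library that stood apart, here as the low one. Of the 5 superoxide dismutases kept, FSD1 was counted as negative, CSD2 as positive and 3 were not counted: the plastid iron enzymes FSD2 (0.20) and FSD3 (-0.04), and the mitochondrial manganese enzyme MSD1 (-0.04). The cytosolic enzyme CSD1 shares its locus in the files and was put aside; it stood at 2035 FPKM in spl7 with copper and 2090 FPKM in spl7 on MS, against 1985 FPKM in wild type with copper and 186 FPKM in wild type on MS. The peroxisomal enzyme CSD3, also at a shared locus, had between 165 and 187 FPKM in the 4 libraries.

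Among 9 copper chaperones and copper ATPases kept, 1 was counted as positive and 1 as negative. CCS (AT1G12520; chromosome 1, 4267106 to 4268926), the chaperone that loads copper into the copper/zinc superoxide dismutases, stood at 885 FPKM in spl7 with copper and 1040 FPKM in spl7 on MS, against 981 FPKM in wild type with copper and 162 FPKM in wild type on MS. Wild type on MS was the low library, as for CSD2, and the difference was 2.82. CCH (AT3G56240; chromosome 3, 20863257 to 20864544), a cytosolic copper chaperone of the ATX1 family, had the reverse arrangement, with 579 FPKM in spl7 with copper and 703 FPKM in spl7 on MS, against 615 FPKM in wild type with copper and 2929 FPKM in wild type on MS, and a difference of -1.97.

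The other 7 of that list lay between -0.42 and 0.46. They were the chaperone ATX1 (-0.15), the copper ATPases PAA1 of the chloroplast envelope (0.26), RAN1 of the secretory pathway (-0.16) and HMA5, which exports copper in roots (-0.42), the homologues HCC1 (-0.21) and HCC2 (-0.09) of a mitochondrial copper chaperone, and AT1G53030 (0.46). HMA5 stood at 66.9 FPKM in spl7 with copper and 28.4 FPKM in spl7 on MS, against 44.3 FPKM in wild type with copper and 25.3 FPKM in wild type on MS. Its level was thus higher with copper in both genotypes and was highest in spl7 with copper. COX17, a chaperone for cytochrome oxidase, shares its locus and stood at 94.3 FPKM in spl7 with copper and 44.6 FPKM in spl7 on MS, against 77.6 FPKM in wild type with copper and 72.9 FPKM in wild type on MS.

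Of the 5 genes of copper uptake and reduction kept, 1 was negative and 0 were positive, with a list median of -0.34. COPT2 (AT3G46900; chromosome 3, 17268875 to 17269510), a plasma membrane copper transporter, stood at 23.5 FPKM in spl7 with copper and 19.8 FPKM in spl7 on MS, against 28.5 FPKM in wild type with copper and 153 FPKM in wild type on MS. Wild type on MS was the high library and the difference was -2.62. YSL3, a transporter of metals bound to nicotianamine, missed the threshold at -0.91, with 44.1 FPKM in spl7 with copper and 55.5 FPKM in spl7 on MS, against 54.0 FPKM in wild type with copper and 128 FPKM in wild type on MS. The transporters COPT1 (-0.34), COPT6 (-0.31) and YSL1 (0.15) had no library that stood apart in this way.

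The list is described by its kept members only in part, because 8 of its 13 genes were put aside. ZIP2, FRO4 and AT1G71200 were listed at 0 in both spl7 libraries and in wild type with copper, and stood at 96.5, 13.9 and 15.9 FPKM in wild type on MS; no ratio is given for them. ZIP2 is a metal transporter, and FRO4 and its neighbour FRO5 are reductases for copper at the root surface; FRO5 was listed at 0 in the same 3 libraries and reached 4.54 FPKM in wild type on MS. YSL2, at a shared locus, stood at 11.8 FPKM in spl7 with copper and 13.6 FPKM in spl7 on MS, against 14.5 FPKM in wild type with copper and 301 FPKM in wild type on MS. COPT5, the vacuolar copper transporter, also shares its locus and lay between 447 and 566 FPKM in all libraries, while COPT3 and COPT4 were listed at 0 in all 4. Wild type on MS was thus the high library of ZIP2, FRO4, FRO5, AT1G71200 and YSL2, as it was of COPT2.

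Blue copper proteins and laccases, most of them known targets of copper microRNAs, counted 2 positive and 0 negative of 10 kept, with a median of 0.42 beside 0.02 over all genes. ARPN (AT2G02850; chromosome 2, 826404 to 827812), the plantacyanin, stood at 208 FPKM in spl7 with copper and 105 FPKM in spl7 on MS, against 172 FPKM in wild type with copper and 35.9 FPKM in wild type on MS, a difference of 1.24. Its level was higher with copper in both genotypes, and by more in wild type. The laccase LAC2 had 5.15 FPKM in spl7 with copper and 6.75 FPKM in spl7 on MS, against 4.05 FPKM in wild type with copper and 1.79 FPKM in wild type on MS. It lay near the minimum level and its difference was 1.19. With a pseudocount of 5 FPKM in place of 1 the difference of LAC2 was 0.63.

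The remaining members of that list were not counted. The lignin laccase IRX12, also called LAC4, was nearest at 0.90, with 80.1 FPKM in spl7 with copper and 119 FPKM in spl7 on MS, against 80.2 FPKM in wild type with copper and 63.0 FPKM in wild type on MS. LAC17 was at 0.66 and the uclacyanin UCC2 at 0.58, while LAC3 (0.11), LAC13 (-0.21) and LAC7 (-0.35) lay closer to 0. LAC12 was below 5 FPKM in all libraries. Both plastocyanins, the abundant copper proteins of photosynthetic electron transport, differed little: PETE1 was at 0.25 and DRT112 at 0.19. The metallothioneins MT1C (-0.40) and MT2A (0.20) were not counted; MT2B and MT3 share their loci, and MT1A, MT4a and MT4b were listed at 0 in all libraries.

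**Figure D2:**
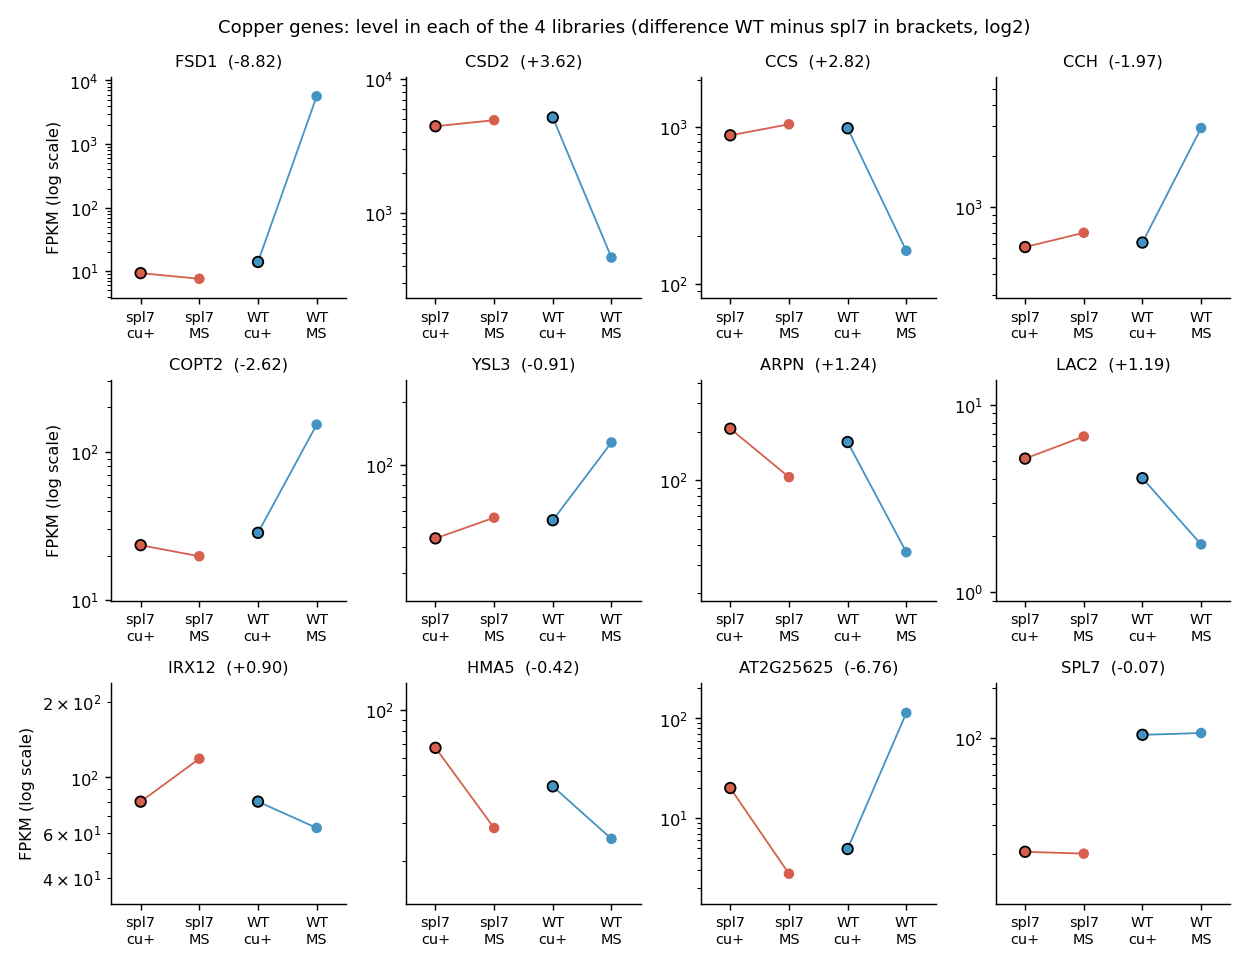
FPKM (log axis, with its own range in each panel) of 12 genes in the 4 libraries, spl7 in red and wild type in blue, with copper outlined in black; the number in brackets is the difference, wild type minus spl7, in log2. FSD1, CCH, COPT2 and AT2G25625 have wild type on MS as the high library, CSD2, CCS, ARPN and LAC2 have it as the low library, and SPL7 differs by genotype but not by medium.

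With the copper lists included, wild type on MS stood apart as the high library in 12 of the 146 negative genes (8.22%) and as the low library in 13 of the 56 positive genes (23.2%), against 11.5% and 10.4% of all 15853 genes. Outside the copper lists these were 9 negative and 9 positive genes. The library that stood apart is the one whose log2 level lay farthest from the median of the other 3. Selection by sign limits these arrangements: wild type on MS was the low library in 0 negative genes and the high one in 0 positive genes. The shares of all genes are thus not a like-for-like comparison, and a higher share among counted genes follows in part from how they were chosen. AT2G25625 (chromosome 2, 10906428 to 10907288) had the second lowest difference, -6.76. It stood at 20.0 FPKM in spl7 with copper and 2.77 FPKM in spl7 on MS, against 4.90 FPKM in wild type with copper and 114 FPKM in wild type on MS. Copper went with a higher level in spl7 and a lower level in wild type, and this was the 1 gene of the 15853 with a ratio of at least 2-fold in each genotype and in opposite directions.

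AT2G47010 (chromosome 2, 19317126 to 19319397) had 5.46 FPKM in spl7 with copper and 5.41 FPKM in spl7 on MS, against 7.66 FPKM in wild type with copper and 41.0 FPKM in wild type on MS, a difference of -2.29. On the positive side MEE3, a MYB-related factor of the RADIALIS-like family, had 12.2 FPKM in spl7 with copper and 13.0 FPKM in spl7 on MS, against 16.8 FPKM in wild type with copper and 5.90 FPKM in wild type on MS, a difference of 1.45. In both, the 2 spl7 libraries and wild type with copper lay close together.

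Most negative genes had another arrangement. In 82 of 146 (56.2%, against 10.2% of all genes) spl7 with copper was the high library, and in 42 (28.8%, against 15.0%) spl7 on MS was the low one; in the remaining 10 it was wild type with copper that was low. The median copper ratio of the negative genes was 1.47 in spl7 and 0.07 in wild type. A ratio of at least 2-fold up in spl7 with less than 2-fold in wild type was held by 98 genes, and 7 were at least 2-fold up in both. That negative genes lean toward higher levels with copper in spl7 follows in part from how they were chosen.

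The 56 positive genes were spread more evenly over the libraries. The library that stood apart was spl7 on MS as the high one in 15 (26.8%, against 18.5% of all genes). It was spl7 with copper as the low one in 14 (25%, against 16.7%). Wild type with copper was the high one in 14 (25%, against 9.61%), and wild type on MS the low one in 13 (23.2%, against 10.4%). Selection by sign limits these arrangements too, so the shares are not a like-for-like comparison. The median copper ratio of the positive genes was -0.60 in spl7 and 0.59 in wild type, and in 37 neither ratio reached 2-fold.

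Glutathione transferases and other oxidative stress genes counted 8 negative and 0 positive of 20 kept, with a median of -0.84. Over all genes 0.921% were negative and 0.353% positive, with a median of 0.02. Glutathione transferases join glutathione to reactive compounds and are induced by many stresses. GSTF7 (AT1G02920; chromosome 1, 658657 to 659771) stood at 259 FPKM in spl7 with copper and 31.9 FPKM in spl7 on MS, against 45.6 FPKM in wild type with copper and 26.5 FPKM in wild type on MS. It was high in spl7 with copper and the other 3 libraries lay close together, with a difference of -2.22. Its neighbour GSTF6 (-1.60) is a near copy, so unique reads may be split between them and both values are uncertain.

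GSTU25 had the same arrangement, with 117 FPKM in spl7 with copper and 21.5 FPKM in spl7 on MS, against 38.8 FPKM in wild type with copper and 26.3 FPKM in wild type on MS, a difference of -1.85. GSTU4 had 103 FPKM in spl7 with copper and 26.4 FPKM in spl7 on MS, against 19.2 FPKM in wild type with copper and 15.5 FPKM in wild type on MS, a difference of -1.64. GSTF2 was counted at -1.19, with 786 FPKM in spl7 with copper and 320 FPKM in spl7 on MS, against 442 FPKM in wild type with copper and 411 FPKM in wild type on MS. Other abundant transferases were not counted: GSTU19 (0.04), GSTU5 (0.05) and GSTU1 (0.06) lay near 0 (GSTF2 and these 3 were chosen after their values were seen), as did the cytosolic ascorbate peroxidase APX1 (0.10).

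UGT74E2, a glucosyltransferase for the auxin precursor indole-3-butyric acid that reactive oxygen induces, had 662 FPKM in spl7 with copper and 159 FPKM in spl7 on MS, against 427 FPKM in wild type with copper and 299 FPKM in wild type on MS. Here spl7 on MS was the low library, and the difference was -1.54. On the same list BCS1, a protein of the outer mitochondrial membrane, was counted at -1.47, and the mitochondrial alternative oxidase AOX1A was not, at -0.79 (both chosen after their values were seen). AOX1A had 443 FPKM in spl7 with copper and 235 FPKM in spl7 on MS, against 400 FPKM in wild type with copper and 367 FPKM in wild type on MS.

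The list of salicylate and camalexin defence counted 4 negative and 0 positive of 11 kept, with a median of -0.23. Over all genes 0.921% were negative and 0.353% positive, with a median of 0.02. PAD3 (AT3G26830; chromosome 3, 9887948 to 9889705), the cytochrome P450 of the last step of camalexin synthesis, had 53.8 FPKM in spl7 with copper and 4.90 FPKM in spl7 on MS, against 3.64 FPKM in wild type with copper and 2.64 FPKM in wild type on MS. It was high in 1 library alone, and its difference of -2.87 was the third lowest. WRKY70, a transcription factor of salicylate signalling, had 32.4 FPKM in spl7 with copper and 7.76 FPKM in spl7 on MS, against 15.1 FPKM in wild type with copper and 9.96 FPKM in wild type on MS, a difference of -1.37.

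WRKY46 (-1.51) and CBP60G (-1.30), which are transcriptional activators in defence, were the other 2 counted. Not counted were the signalling proteins EDS1 (0.04) and PAD4 (-0.23), the salicylate receptor NPR1 (0.05) and the salicylate synthesis enzyme EDS16 (0.31). PR5 (-0.78) and WRKY18 (-0.04) were not counted either. The salicylate gene PBS3, outside the list, was counted as negative at -1.37. These genes, from EDS1 to PBS3, were all chosen after their values were seen. Among members put aside, ALD1 stood at 14.7 FPKM and CYP71A12 at 35.4 FPKM in spl7 with copper; ALD1 was listed at 0 in the other 3 libraries, and CYP71A12 stood at 2.30 FPKM in wild type with copper and was listed at 0 on MS in both genotypes. CYP71A13, a kept member chosen after its values were seen, was not counted and had the highest difference of the list, 0.40. It had 12.7 FPKM in spl7 with copper and 16.6 FPKM in spl7 on MS. In wild type CYP71A13 had 15.9 FPKM with copper and 15.5 FPKM on MS. SARD1, put aside, stood at 5.50 FPKM in spl7 with copper and was listed at 0 in spl7 on MS. In wild type SARD1 had 1.91 FPKM with copper and 1.69 FPKM on MS. PR1, the classical marker of salicylate responses, and FMO1 were below 5 FPKM in all 4 libraries. PR1 had 3.14 FPKM and FMO1 4.53 FPKM in spl7 with copper, and both were listed at 0 in the rest.

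Of the 12 lowest differences, those of SIB1, ELI3-2 and AT5G25250 belong to genes outside the lists with spl7 with copper as the high library. SIB1, a chloroplast and nuclear protein that binds the defence factor WRKY33, had 58.0 FPKM in spl7 with copper and 4.57 FPKM in spl7 on MS, against 14.9 FPKM in wild type with copper and 8.49 FPKM in wild type on MS (-2.66). ELI3-2, an alcohol dehydrogenase induced by pathogens, had 66.8 FPKM in spl7 with copper and 3.74 FPKM in spl7 on MS, against 13.4 FPKM in wild type with copper and 4.49 FPKM in wild type on MS (-2.45). AZI1, a lipid-transfer-like protein of defence priming and the most abundant negative gene of this arrangement, had 1943 FPKM in spl7 with copper and 456 FPKM in spl7 on MS, against 656 FPKM in wild type with copper and 473 FPKM in wild type on MS (-1.62). SIB1, ELI3-2 and AZI1 were highest in spl7 with copper, with wild type with copper second.

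The rest of the 12 lowest differences were those of AT4G12735 (-2.81), AT2G04050 (-2.67), AT5G25250 (-2.54), AT5G13210 (-2.34) and AT2G18193 (-2.30). In AT4G12735, AT2G04050, AT5G13210 and AT2G18193 spl7 on MS stood apart as the low library. AT2G18193 had 343 FPKM in spl7 with copper and 39.7 FPKM in spl7 on MS, against 301 FPKM in wild type with copper and 175 FPKM in wild type on MS. AT5G25250 is FLOT1, a flotillin of the plasma membrane, and had 34.1 FPKM in spl7 with copper and 2.69 FPKM in spl7 on MS, against 8.16 FPKM in wild type with copper and 4.61 FPKM in wild type on MS.

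The list of ethylene response and touch counted 2 negative and 0 positive of 9 kept, with a median of -0.84. Over all genes 0.921% were negative and 0.353% positive, with a median of 0.02. TCH3, a calmodulin-like protein induced by touch, had 433 FPKM in spl7 with copper and 191 FPKM in spl7 on MS, against 325 FPKM in wild type with copper and 335 FPKM in wild type on MS. In TCH3 the low library was spl7 on MS, and the difference was -1.22. The ethylene response factor AT5G51190, ERF105 in RefSeq, was counted at -1.20. TCH2 (0.03), TCH4 (-0.02) and ERF104 (0.06) lay near 0. The other members not counted were CML38 (-0.88), ERF5 (-0.87), ERF6 (-0.84) and ERF2 (-0.47). All members named here as near 0 or not counted were chosen after their values were seen.

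A few genes of unlike roles also had spl7 on MS as the low library that stood apart. ELF4, a component of the evening complex of the circadian clock, had 16.4 FPKM in spl7 with copper and 4.41 FPKM in spl7 on MS, against 15.2 FPKM in wild type with copper and 16.4 FPKM in wild type on MS (-1.79). It was the only counted gene of 10 clock genes kept, and the other 9 lay between -0.44 and 0.20. Of 7 genes of glucosinolate synthesis kept, MAM1 (-1.39), which elongates methionine side chains, and CYP83A1 (-1.30) of the same methionine-derived branch were counted as negative. Over all genes 0.921% were negative. Genes of the tryptophan-derived branch were not counted: CYP79B2, CYP79B3 and CYP83B1, chosen after their values were seen, lay between -0.12 and 0.11. The remaining kept members, MYB28 (0.05) and MYB29 (-0.75), were not counted either and were also chosen after their values were seen. MAM1 had 28.2 FPKM in spl7 with copper and 15.5 FPKM in spl7 on MS, against 29.2 FPKM in wild type with copper and 43.6 FPKM in wild type on MS. Its log2 copper ratio was 0.82 in spl7 and -0.56 in wild type, so both genotypes entered its difference.

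**Figure D3:**
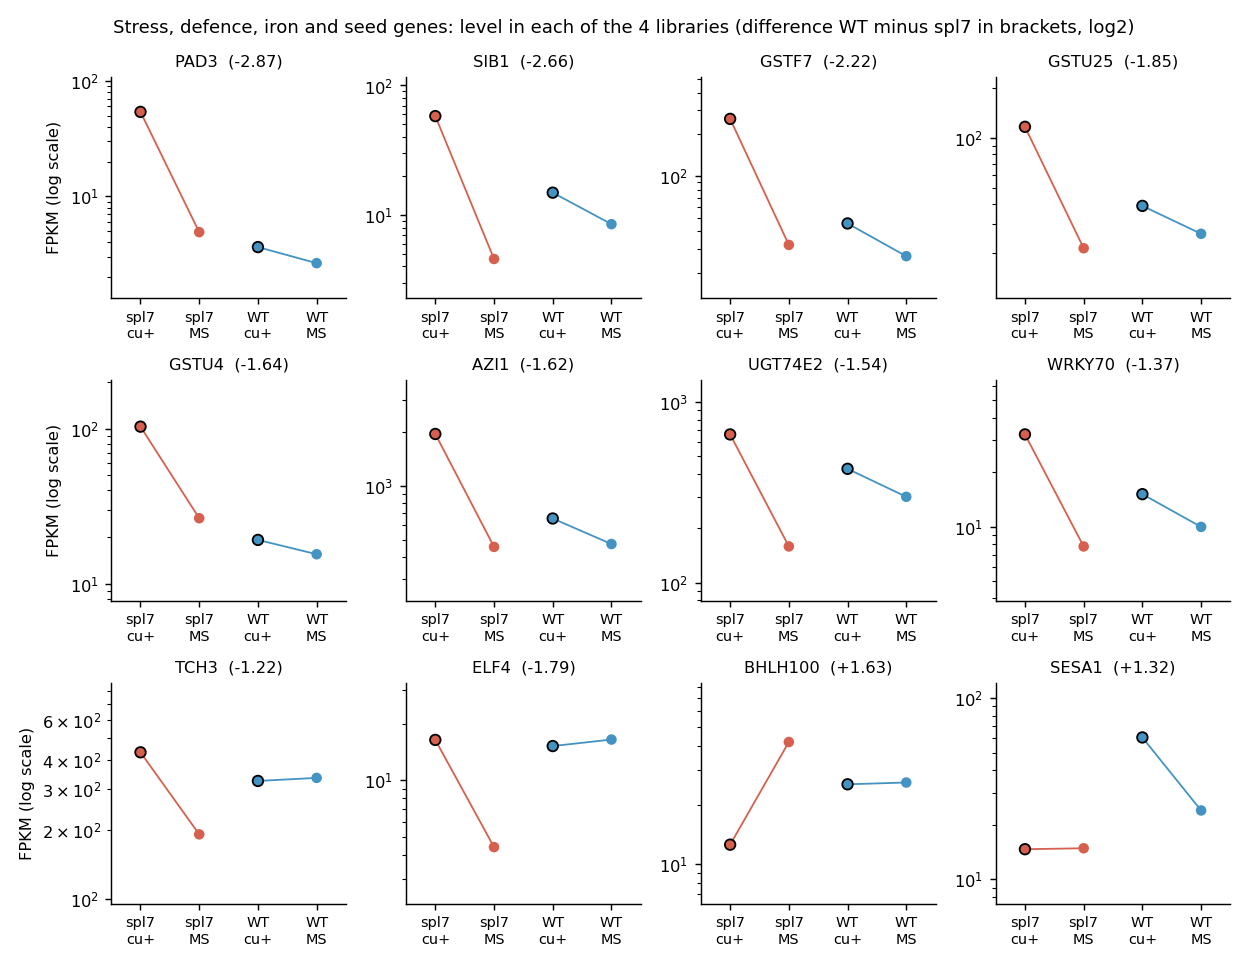
FPKM (log axis, with its own range in each panel) of 12 genes in the 4 libraries, spl7 in red and wild type in blue, with copper outlined in black; the number in brackets is the difference, wild type minus spl7, in log2. PAD3, SIB1 and the glutathione transferases are highest in spl7 with copper, TCH3, ELF4 and UGT74E2 are lowest in spl7 on MS, and SESA1 is highest in wild type with copper.

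Iron, zinc and phosphate genes supplied a few of the 56 positive differences. Of 24 iron deficiency genes kept, 2 were positive and 1 was negative, beside 0.353% and 0.921% of all genes. The list had a median of -0.07, and 14 of its kept genes were below 0. BHLH100 (AT2G41240; chromosome 2, 17198282 to 17199320), a transcription factor induced by iron shortage, had 12.5 FPKM in spl7 with copper and 41.8 FPKM in spl7 on MS, against 25.4 FPKM in wild type with copper and 26.0 FPKM in wild type on MS. Wild type lay between the 2 spl7 libraries, and the difference of 1.63 was the third highest of all genes.

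The related BHLH038 had 21.0 FPKM in spl7 with copper and 67.2 FPKM in spl7 on MS, against 35.4 FPKM in wild type with copper and 54.7 FPKM in wild type on MS, a difference of 1.02, or 0.994 with the median difference of all genes subtracted. BHLH039 (0.33) and BHLH101 (0.44) of the same group were not counted and were chosen after their values were seen. CYP82C4, which acts in the synthesis of iron-mobilising coumarins, went the other way at -1.75, with 7.65 FPKM in spl7 with copper and 1.90 FPKM in spl7 on MS, against 18.4 FPKM in wild type with copper and 20.9 FPKM in wild type on MS. The uptake genes IRT1 (-0.71) and FRO2 (-0.60), also chosen after their values were seen, were not counted.

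ZIP3, a zinc transporter, was the 1 counted of 5 zinc deficiency genes kept, at 1.29, with 10.8 FPKM in spl7 with copper and 17.0 FPKM in spl7 on MS, against 18.7 FPKM in wild type with copper and 11.3 FPKM in wild type on MS. The list had a median of 0.43. The 16 phosphate starvation genes kept had a median of 0.41, and 14 of them were above 0. MGDC, a galactolipid synthase induced by phosphate shortage, was the only one counted, at 1.00, with 61.6 FPKM in spl7 with copper and 93.5 FPKM in spl7 on MS, against 52.6 FPKM in wild type with copper and 39.5 FPKM in wild type on MS; it was 1 of the 3 genes just inside the threshold. It was not counted with the median difference subtracted (0.976), with upper-quartile scaling (0.981) or with a pseudocount of 5 FPKM (0.939). The signalling RNA IPS1 (0.91) and the sensor SPX3 (0.90), chosen after their values were seen, came next above 0. Below 0 were RNS1 (-0.94) and PPCK1 (-0.10), also chosen after their values were seen.

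Lists with no counted member were those of ferritins (4 kept), sulfur deficiency (11 kept), jasmonate (15 kept), cold and abscisic acid (6 kept), flavonoids (12 kept), antenna, photosystem and Rubisco genes (17 kept), metallothioneins (2 kept) and root markers (10 kept). The 17 photosynthetic genes lay between -0.09 and 0.23, the narrowest range of any list with more than 5 genes kept. Of 11 heat shock genes kept, 1 was counted, the mitochondrial chaperone HSP23.6-MITO at -1.25.

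**Figure D4:**
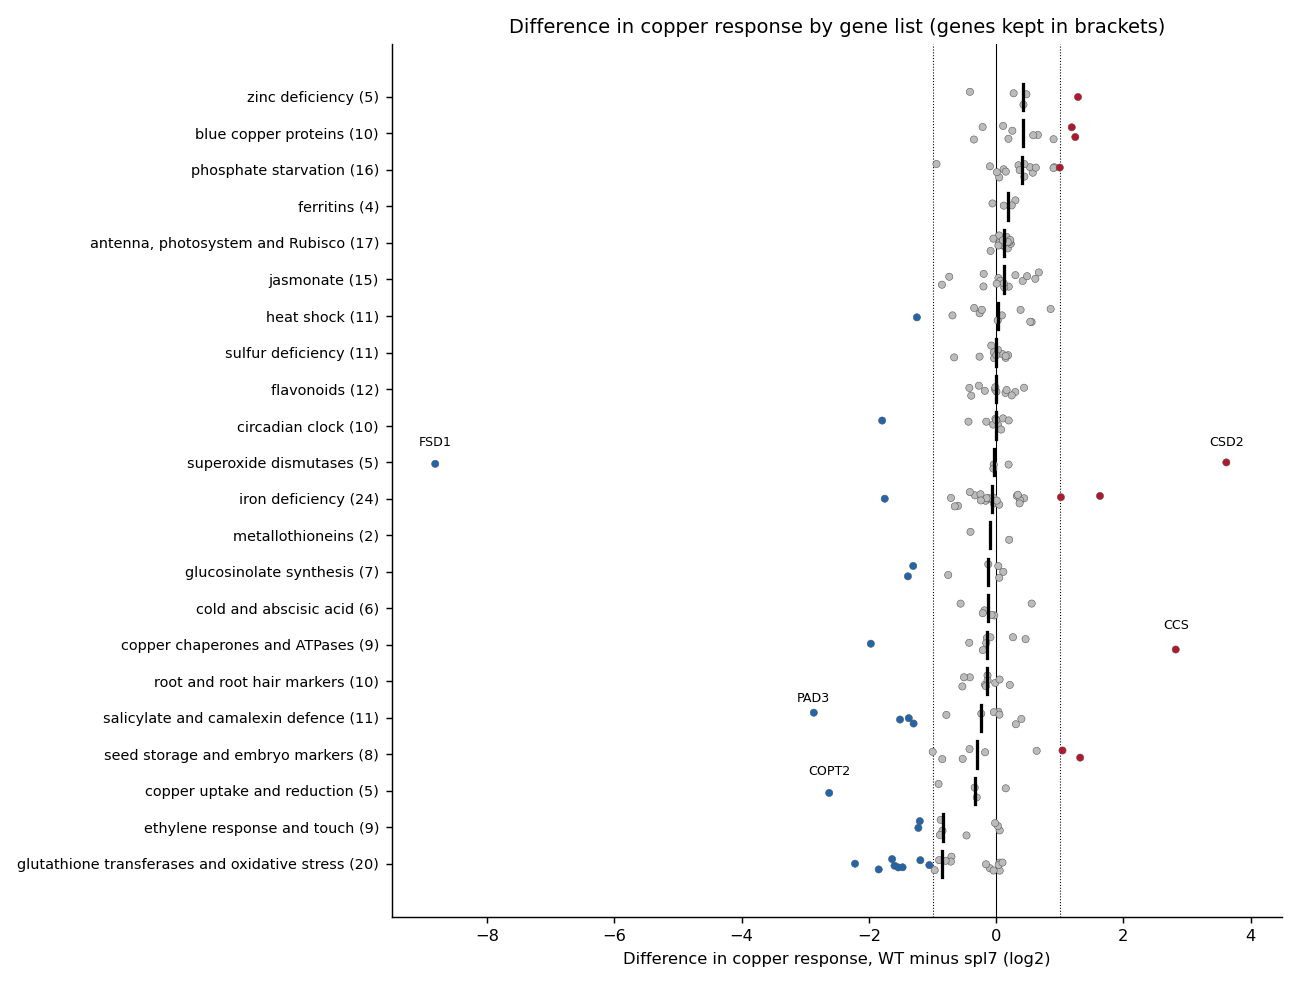
Difference in copper response (wild type minus spl7, log2) of every kept gene of 22 lists, 1 point per gene with vertical scatter for legibility, red for genes counted as positive, blue for negative and grey for those not counted; black bars are list medians and dotted lines the thresholds. The lowest medians are those of glutathione transferases and oxidative stress and of ethylene response and touch, both at -0.84, and the highest that of zinc deficiency at 0.43.

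Seed storage transcripts differed between the libraries. Of 8 seed and embryo markers kept, 2 were positive and 0 negative, beside 0.353% positive and 0.921% negative over all genes. The list had a median of -0.30, and 5 of its kept genes were below 0. SESA1, a storage albumin of seeds, had 14.7 FPKM in spl7 with copper and 14.8 FPKM in spl7 on MS, against 60.7 FPKM in wild type with copper and 24.0 FPKM in wild type on MS (1.32); SESA3 was at 1.04. The other 6 lay between -0.998 and 0.64, among them the storage globulin CRA1 (-0.85), chosen after its values were seen. The summed level of the 13 markers was 701 FPKM in spl7 with copper and 256 FPKM in spl7 on MS, against 839 FPKM in wild type with copper and 396 FPKM in wild type on MS. SESA4, SESA5 and CRU2 were listed at 0 in both spl7 libraries. The part of this seed signal in the differences of other genes was not tested. In whole seedlings, fewer cells of a type and less RNA per cell cannot be told apart.

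The other marker lists were as in whole green seedlings with roots. Root markers summed to 617 FPKM in spl7 with copper and 599 FPKM in spl7 on MS, against 656 FPKM in wild type with copper and 701 FPKM in wild type on MS, and 13 of 13 were above 0. All 19 antenna, photosystem and Rubisco genes were above 4946 FPKM in every library. Of 6 flower and pollen markers, 5 were listed at 0 in all libraries and VEX1 reached at most 4.58 FPKM.

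Positive genes outside the lists were mostly of low level. After CSD2, CCS and BHLH100, the highest differences were those of AT1G14950 (1.55), the endoglucanase CEL3 (1.46), AT5G53190 (1.46), MEE3 (1.45), the signalling peptide gene CLE42 (1.44), AT5G44578 (1.40), AT5G43300 (1.38), AT2G18210 (1.37) and SESA1. AT5G53190 is SWEET3, of a family of sugar transporters, and AT5G43300 is GDPD3 in RefSeq. The highest level of any of the 8 named before SESA1 was the 27.5 FPKM of AT5G44578 in spl7 on MS.

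The count of genes depended strongly on level. Below a mean of 10 FPKM over the 4 libraries, 30 of 1461 genes (2.05%) were positive and 54 (3.70%) negative; from 300 FPKM up, 2 of 2090 (0.0957%) were positive and 7 (0.335%) negative. The 5th and 95th percentiles of the difference were -0.92 and 0.76 in the lowest range, and -0.21 and 0.27 in the highest. The 9 counted genes from 300 FPKM up were CSD2 and CCS on the positive side, and FSD1, CCH, AZI1, UGT74E2, MRP3, TCH3 and GSTF2 on the negative side. MRP3, named so in the files and chosen after its values were seen, had 846 FPKM in spl7 with copper and 215 FPKM in spl7 on MS, against 439 FPKM in wild type with copper and 322 FPKM in wild type on MS.

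**Figure D5:**
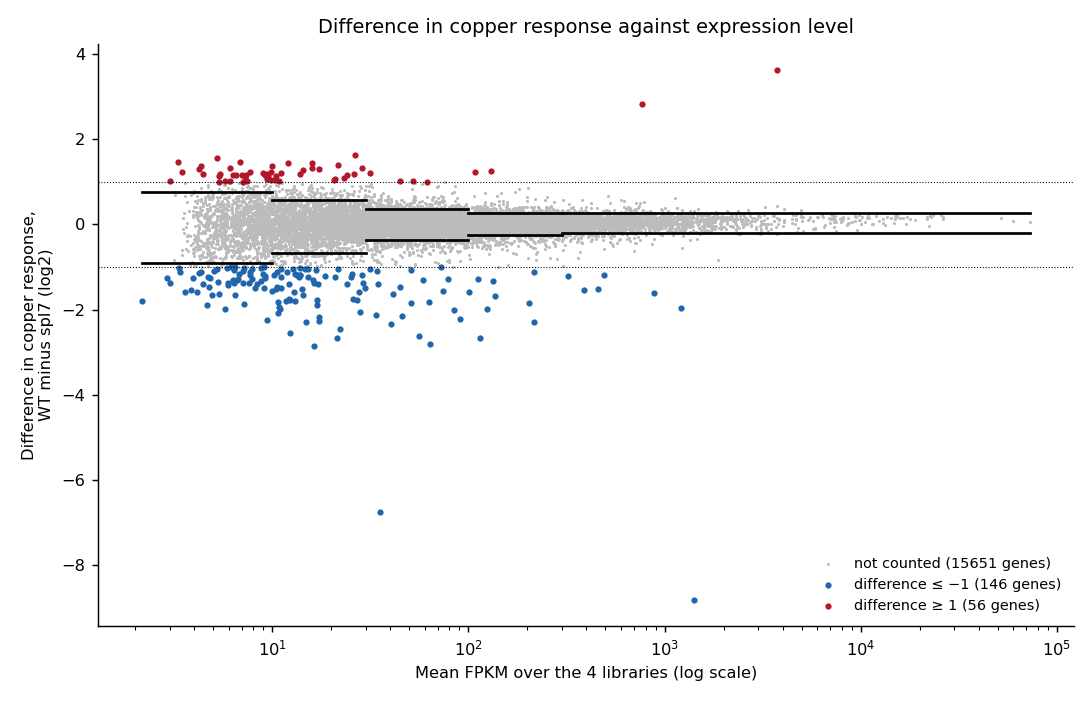
Difference in copper response (wild type minus spl7, log2) of 15853 genes against their mean FPKM over the 4 libraries (log axis), red for 56 positive and blue for 146 negative genes; dotted lines mark the thresholds and black bars the 5th and 95th percentiles within 5 ranges of level. The spread narrows with level, and FSD1 at the bottom right and CSD2 and CCS at the top right lie far outside it.

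At the thresholds the values ran on without a gap. The 3 genes just inside on the negative side were AT5G01445 (-1.008), ROXY1 (-1.007) and AT1G72100 (-1.003), and those just outside were CYCD4;2 (-0.999), MYB84 (-0.998) and PER1 (-0.998). On the positive side AT3G56890 (1.01), eIF4E3 (1.00) and MGDC (1.00) were just inside, and RIC10 (0.99), GL22 (0.99) and AT1G09380 (0.98) just outside.

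SPL7 peaks were a readout that the differences did not use. A peak lay on the gene or within 1 kb of it in 6 of 56 positive genes (10.7%, Wilson 95% interval 5.00 to 21.5%), in 5 of 146 negative genes (3.42%, 1.47 to 7.77%) and in 1236 of 15853 genes in all (7.80%). Both intervals cover counting error only. Genes with a peak were more highly expressed in these libraries, with a median mean level of 309 FPKM, against 62.7 FPKM for genes without one, and the part of level in these shares was not tested.

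The negative genes with a peak were FSD1, AT2G47010, CCH, AZI1 and SOT12, a sulfotransferase with a difference of -1.13. At FSD1 3 peaks were listed, the highest-scoring at chr4:12885190-12885578 with a deposited score of 236 against a median of 224 over the 1535 peaks. The peak at CCH (score 208) and that at AZI1 (score 294) overlap the genes, and that at AT2G47010 (score 283) lies 132 bp beyond the end with the higher coordinate. The files give no strand, so a side cannot be named upstream.

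The positive genes with a peak were CSD2 (overlapping, score 229), LLG3, AT1G10000, AT3G07150, AT5G46115 and AT5G53190. COPT2, CCS and AT2G25625 had no peak within 1 kb. SPL7 itself had 6 peaks, the highest-scoring of them with a score of 1104; the transgene carries SPL7 sequence, and the part of this in those peaks was not tested.

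Some neighbouring genes shared a counted difference. Over all genes 0.921% were negative and 0.353% positive, and how many neighbour pairs these shares alone would give was not worked out. Among the 202 counted genes, 4 pairs of neighbours in the files' gene order had the same sign, all negative: GSTF7 and GSTF6, AT1G05675 and UGT74E2, ABCB4 and AT2G47010, and AT5G25250 and AT5G25260. ABCB4, an auxin transporter, had 231 FPKM in spl7 with copper and 76.1 FPKM in spl7 on MS, against 125 FPKM in wild type with copper and 104 FPKM in wild type on MS (-1.33), and spl7 with copper stood apart in it, while wild type on MS stood apart in its neighbour AT2G47010. AT5G25260 stood at -1.09 and, like GSTF6, has a near copy beside it.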

How the data were processed

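FPKM values of 4 RNA-seq libraries and 1 ChIP-seq peak list were used. The authors made the FPKM values with Cufflinks after TopHat had mapped the reads to TAIR10, per the submitters' processing notes, which also name CASAVA 1.8.2 and no other version. The series description limits them to reads that mapped uniquely, so near copies lose reads. Library totals ran from 4383940 to 4694640 FPKM, depth is unknown, and no stranded kit is stated, so overlapping genes cannot be separated. The peaks carry a score, used as the authors deposited it; the ChIP reads were mapped with Bowtie, per the same notes. Its meaning, and any use of the spl7 control to call peaks, are not stated in those notes.

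Of 27052 entries, 26475 were matched to a locus in a RefSeq table (TAIR10.1, names only). Differences were computed with pandas 2.3.3 under Python 3.11.15 on log2(FPKM + 1), which understates low genes, and the steps were checked on simulated data. Each group has 1 library, so no test was run. The members and 23 lists (317 genes) were chosen with earlier results of these data known. PAA2, ZIP4, APR1, APR2, APR3, ERF1, RAB18 and GRP7 were not matched.

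Named were SPL7; the 12 highest and 12 lowest differences; up to 4 counted genes per list; members of the 5 copper lists; 3 genes on either side of each threshold; up to 8 counted genes with a peak in each direction; up to 6 with opposite ratios; and up to 5 neighbour pairs. Promoter letters were planned and not analysed here. Alternatives covered the pseudocount, scaling, minimum level, genes put aside, threshold, and the flank and score of peaks. Coordinates are 1-based, from the authors' files.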

Additional observations from a re-analysis of the deposited data

Results flagged for a closer look

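AT2G25625 stood apart in that its copper ratio was at least 2-fold in each genotype and in opposite directions: the log2 ratio of copper over MS was 2.48 in spl7 and -4.28 in wild type, and the difference was -6.76. The difference was not tested, since each group has 1 library. Its direction and its side of the threshold held under the pseudocounts of 0.1 and 5 FPKM, upper-quartile scaling and subtraction of the median difference.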

How the results depend on the processing

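Against 56 positive and 146 negative genes, a pseudocount of 5 FPKM gave 13 and 78, a minimum of 20 FPKM in any library 19 and 77, and at least 5 FPKM in all 4 libraries 36 and 85. Keeping genes at 0 gave 147 and 237, a log2 threshold of 2 gave 2 and 21, and a 1.5-fold threshold 352 and 512. The other 6 settings of these counts stayed within 1.5 times. Under a pseudocount of 5 FPKM with a minimum of 20 FPKM, an alternative added after the data were seen, 11 positive and 65 negative genes were counted. Of the 91 named genes kept, 0 reversed under any of the 4 alternatives run on them. With a pseudocount of 5 FPKM 20 of them were no longer counted, and 4 were no longer counted under either rescaling. BHLH038 was among these, at 0.91 with a pseudocount of 5 FPKM and 0.994 with the median subtracted. The median of the seed list was 0.68 with genes at 0 kept, against -0.30; that of copper uptake was -1.76, against -0.34. Shares of genes with a peak kept their order under 500 bp, 3 kb and the higher-scoring peaks, on few counted genes. The positive share was 7.14% (4 of 56) against 6.61% of all genes at 500 bp, and 12.5% (7 of 56) against 12.1% at 3 kb. With the higher-scoring peaks it was 5.36% (3 of 56) against 3.92%. The negative share was 2.74%, 6.85% and 2.05% in the same order of settings. No paired analysis was possible because each group has 1 library, and for the same reason no replicate could be left out. The count of promoter letters and its alternative were not run. Depth is unknown, and low levels limit most positive counts: the median of their highest library was 13.9 FPKM, and that of negative genes 20.9 FPKM.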

Other observations

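Gene families, some of whose members are also on the lists, and all genes in this paragraph were chosen after their values were seen. Families were grouped by the form of gene names, so members named otherwise are not in these counts. Over all genes, 0.921% were negative and 0.353% positive. Of 43 NAC transcription factors kept, 4 were negative and 0 positive: NAC003, NAC016, NAC036 and NAC044. NAC036 had 32.7 FPKM in spl7 with copper and 12.8 FPKM in spl7 on MS, against 24.1 FPKM in wild type with copper and 26.3 FPKM in wild type on MS (-1.41). Of 125 cytochromes P450 with a CYP name kept, 4 were negative and 0 positive, among them CYP82C4 and CYP83A1 of the lists. The cytochrome P450 PAD3, also negative, has no such name and is not in this count. Of 42 WRKY factors kept, 2 were negative and 0 positive, both of them on the salicylate list. Of 44 UDP-glycosyltransferases with a UGT name kept, UGT74E2 alone was counted. Of 4 wall-associated kinases kept, 1 was negative: WAK1 had 71.3 FPKM in spl7 with copper and 11.6 FPKM in spl7 on MS, against 16.2 FPKM in wild type with copper and 9.28 FPKM in wild type on MS (-1.78), and 2 of 19 cysteine-rich kinases were negative. Of 6 calmodulin-like proteins with a CML name kept, CML43 was positive (1.14) and CML41 negative. The calmodulin-like TCH3, also negative, has no such name and is not in this count. CML41 had 125 FPKM in spl7 with copper and 11.1 FPKM in spl7 on MS, against 32.7 FPKM in wild type with copper and 13.3 FPKM in wild type on MS (-2.15). Of 17 CLE peptide genes kept, 2 were positive and 0 negative.

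AT4G12490 lay apart from both axes of the plot of copper responses, with 603 FPKM in spl7 with copper and 11.4 FPKM in spl7 on MS, against 186 FPKM in wild type with copper and 12.8 FPKM in wild type on MS. Its log2 copper ratio was 5.61 in spl7 and 3.76 in wild type, the highest of any kept gene in spl7, and the difference was -1.85.

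Among genes put aside for a value of 0, 42 were at 0 only in spl7 on MS and 42 in both spl7 libraries alone. The peptide gene PNP-A stood at 47.7 FPKM in spl7 with copper and was listed at 0 in spl7 on MS, against 6.24 FPKM in wild type with copper and 5.75 FPKM in wild type on MS. The defensin gene LCR67 was listed at 0 in both spl7 libraries and stood at 85.4 FPKM in wild type with copper and 41.1 FPKM in wild type on MS. Both were chosen after their values were seen.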
